A study of Mus musculus with 36 samples.

Results

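Genes of oxygen transport and heme synthesis were followed through liver and inguinal white adipose tissue (iWAT, a fat depot under the skin) of mice on 3 diets. They are the adult globin genes Hba-a1, Hba-a2, Hbb-bs and Hbb-bt, the erythroid enzyme gene Alas2, and the enzyme genes Alas1, Fech, Cpox, Uros and Alad, which serve heme synthesis in tissues generally. The members were chosen by symbol, and all 10 were found in each of the 6 gene tables, out of 16060 genes listed in at least 1 of these tables. The mice were C57BL/6J and had spent 16 weeks on their diet. The control group ate ad libitum (AL), a group was calorie restricted (CR), and a further group was time restricted without calorie restriction (TR, written TR.al in the labels). Each of the 6 groups of tissue and diet holds 6 libraries, 36 in all, from 20 mice, of which 16 gave both tissues. The study asked whether a daily fast that does not lower calories changes transcription as calorie restriction does. No genotype, transgene or agent is named in the labels, and neither the sex of the mice nor the time of sampling is given in the sources used here. Hours since the last meal and diet therefore cannot be told apart.

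Each table holds 1 comparison of groups made by the authors, so no level or spread of single libraries can be shown and their depth is unknown. The words rose and fell are kept for genes where the adjusted p of the authors' edgeR test was under 0.05. Dividing a log2 fold change by the root of its deposited likelihood-ratio statistic gave an approximate standard error, and from it the approximate 95% intervals below. Group levels in CPM (read counts scaled to library size) were worked back from the deposited log2 mean CPM and log2 fold change. They are approximate, and the 2 estimates that each group has from its 2 tables differed by at most 1.16-fold. The median approximate standard error over all genes ran from 0.142 to 0.153 in liver and from 0.318 to 0.366 in iWAT. For the median gene, smaller changes could thus pass the test in liver than in iWAT. The globins differed less between tissues, with 0.276 to 0.389 in liver and 0.323 to 0.422 in iWAT against AL. Alas1 had 0.318 on CR and 0.363 on TR in liver, and smaller values in iWAT, 0.266 and 0.342.

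Heme is an iron-containing porphyrin that carries oxygen in hemoglobin and electrons in cytochromes. Its synthesis starts and ends in mitochondria. ALAS1 or, in developing red cells, ALAS2 makes 5-aminolevulinate from glycine and succinyl-CoA. ALAD joins these molecules to porphobilinogen, UROS, UROD, CPOX and PPOX are among the enzymes that build and oxidize the ring, and FECH inserts iron. In the liver, which supplies heme to many cytochrome P450 enzymes, ALAS1 sets the rate and is held down by heme itself. Adult alpha globins come from Hba-a1 and Hba-a2 and adult beta globins of this strain from Hbb-bs and Hbb-bt. Mature red cells of the mouse have no nucleus and young ones still hold globin RNA, so globin reads in a solid tissue are usually taken as RNA of blood in its vessels. Perfusion of the tissues is not mentioned in the labels' protocols. In bulk RNA, a different number of red cells and a different amount of globin RNA in each of them cannot be told apart.

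The globin genes lie in 2 clusters, and members of a pair resemble each other (positions from GENCODE M21, GRCm38). Hba-a1 is on chromosome 11 from 32283511 to 32284465 and Hba-a2 from 32296489 to 32297298, both on the plus strand. Hbb-bs is on chromosome 7 from 103826534 to 103828096 and Hbb-bt from 103812524 to 103813996, both on the minus strand. Of all 50-base windows of their annotated transcripts, Hba-a2 shared 89.3% with Hba-a1 and Hba-a1 shared 72.3% with Hba-a2. Between the beta genes the shares were 53.2% of Hbb-bs and 58.3% of Hbb-bt. The split of reads within a pair is therefore uncertain, and most within the alpha pair. Alas2 is on chromosome X from 150547375 to 150570638, and Alas1 on chromosome 9 from 106233455 to 106248654.

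In the liver the globin genes rose together on TR, and Alas2 did not pass the test. The 250 bases before the start sites of globin genes and of Alas2 are shown so that their letters can be compared. They come from RefSeq (GRCm38.p6), where 9 of the 10 members had a window. Motifs known from erythroid or general promoters were searched on both strands: AGATAA or TGATAA (the core bound by GATA factors), CCACCC (bound by KLF factors), TATAAA and CCAAT. Capitals mark every match to any of them, read 5′ to 3′ on the gene's strand, and overlapping matches run together. The windows are chr11:32283422-32283671 on the plus strand for Hba-a1, chr7:103827929-103828178 on the minus strand for Hbb-bs, chr7:103813924-103814173 on the minus strand for Hbb-bt, and chrX:150547167-150547416 on the plus strand for Alas2.
Hba-a1: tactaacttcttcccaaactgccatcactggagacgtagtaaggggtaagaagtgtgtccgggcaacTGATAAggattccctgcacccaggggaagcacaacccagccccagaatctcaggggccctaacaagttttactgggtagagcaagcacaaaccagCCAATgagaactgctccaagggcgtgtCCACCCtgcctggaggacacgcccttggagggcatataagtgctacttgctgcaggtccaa
Hbb-bs: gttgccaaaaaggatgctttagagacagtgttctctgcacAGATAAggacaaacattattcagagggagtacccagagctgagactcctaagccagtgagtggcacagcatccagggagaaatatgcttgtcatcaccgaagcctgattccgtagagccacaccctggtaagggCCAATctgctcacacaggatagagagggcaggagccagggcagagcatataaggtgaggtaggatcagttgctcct
Hbb-bt: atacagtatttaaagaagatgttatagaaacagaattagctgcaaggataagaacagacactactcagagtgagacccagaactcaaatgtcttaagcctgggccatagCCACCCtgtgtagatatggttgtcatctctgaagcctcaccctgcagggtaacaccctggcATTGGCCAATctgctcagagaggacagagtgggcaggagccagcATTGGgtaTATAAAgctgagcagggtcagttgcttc
Alas2: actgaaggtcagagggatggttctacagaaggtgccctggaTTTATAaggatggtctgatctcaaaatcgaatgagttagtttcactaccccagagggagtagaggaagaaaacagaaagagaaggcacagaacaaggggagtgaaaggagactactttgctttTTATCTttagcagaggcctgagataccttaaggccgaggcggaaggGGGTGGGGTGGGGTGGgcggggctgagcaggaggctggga

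The alpha genes have almost the same window: Hba-a2 holds 247 of the 250 bases of Hba-a1 in 1 unbroken run. The longest run common to the beta genes is 14 bases. In Hba-a1, TGATAA begins at -183 from the start site, CCAAT at -88 and CCACCC at -61. Hbb-bs holds AGATAA at -210 and CCAAT at -76, and Hbb-bt holds CCACCC at -141, CCAAT at -75 and TATAAA at -28, with 2 further CCAAT matches on the other strand. In Alas2 all matches stand on the other strand: TATAAA from -209 to -204, AGATAA from -86 to -81, and CCACCC 3 times in matches that overlap. Hbb-bt had no match to AGATAA or TGATAA. Windows of the tissue enzymes held such letters too. TGATAA stood on the other strand at -68 in a Uros window and at -86 in Cpox, and CCACCC at -228 in an Alas1 window. Of 32851 RefSeq windows of the same 250 bases, 16.6% held AGATAA or TGATAA, 28.1% CCACCC, 12.4% TATAAA and 33.8% CCAAT, so single matches are common. A match describes letters, not binding.

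In the liver, globin RNA was higher than in AL on both diets, with the larger estimates on TR. Between CR and TR no globin passed the authors' edgeR test (adjusted p from 0.391 to 0.964). On TR all 4 globin genes rose, by 2.44-fold to 3.36-fold, and on CR 3 of the 4 rose, by 1.79-fold to 2.24-fold. Alas2, the erythroid partner of the globins, did not rise on either diet. Against AL, 3 of the 10 members passed the test on CR, where 11.2% of all genes did, and 5 of 10 passed on TR, where 18.9% of all genes did. The fifth on TR was Alas1. Globin genes of a pair can share reads, so these counts are not of independent genes. No member fell in the liver on either diet.

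Alpha globin levels in liver came to about 26.7 CPM for Hba-a1 in AL, 49.8 in CR and 88.7 in TR. For Hba-a2 they were about 50.8 CPM in AL, 112 in CR and 122 in TR. AL was thus the lowest group for both alpha genes, and CR and TR stood close for Hba-a2 only. Hba-a2 rose on CR with a log2 fold change of 1.16 (adjusted p = 0.0124) and on TR with 1.29 (adjusted p = 9.3e-05) per the authors' deposited tables. Hba-a1 rose on TR with 1.75 (adjusted p = 1.5e-04), and its CR value of 0.92 (adjusted p = 0.0533) missed the threshold per the authors' deposited tables. The approximate intervals of Hba-a1 were 0.26 to 1.59 on CR and 0.99 to 2.51 on TR.

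Beta globin RNA in liver was mostly Hbb-bs, at about 142 CPM in AL, 250 in CR and 354 in TR. Hbb-bt had about 21.6 CPM in AL, 40.3 in CR and 56.3 in TR. Both beta genes thus had the order AL, CR, TR. Hbb-bs rose on CR with a log2 fold change of 0.84 (adjusted p = 0.0441) and on TR with 1.34 (adjusted p = 3.6e-05) per the authors' deposited tables. Hbb-bt rose with 0.93 (adjusted p = 0.0203) and 1.41 (adjusted p = 2.9e-05) per the authors' deposited tables. The median over the 4 globin genes was 0.93 on CR and 1.37 on TR, beside medians of -0.0038 and -5.2e-04 over all genes. Among all liver genes, at least 97.9% had a lower log2 fold change than each globin gene on CR, and at least 98.8% on TR.

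**Figure D1:**
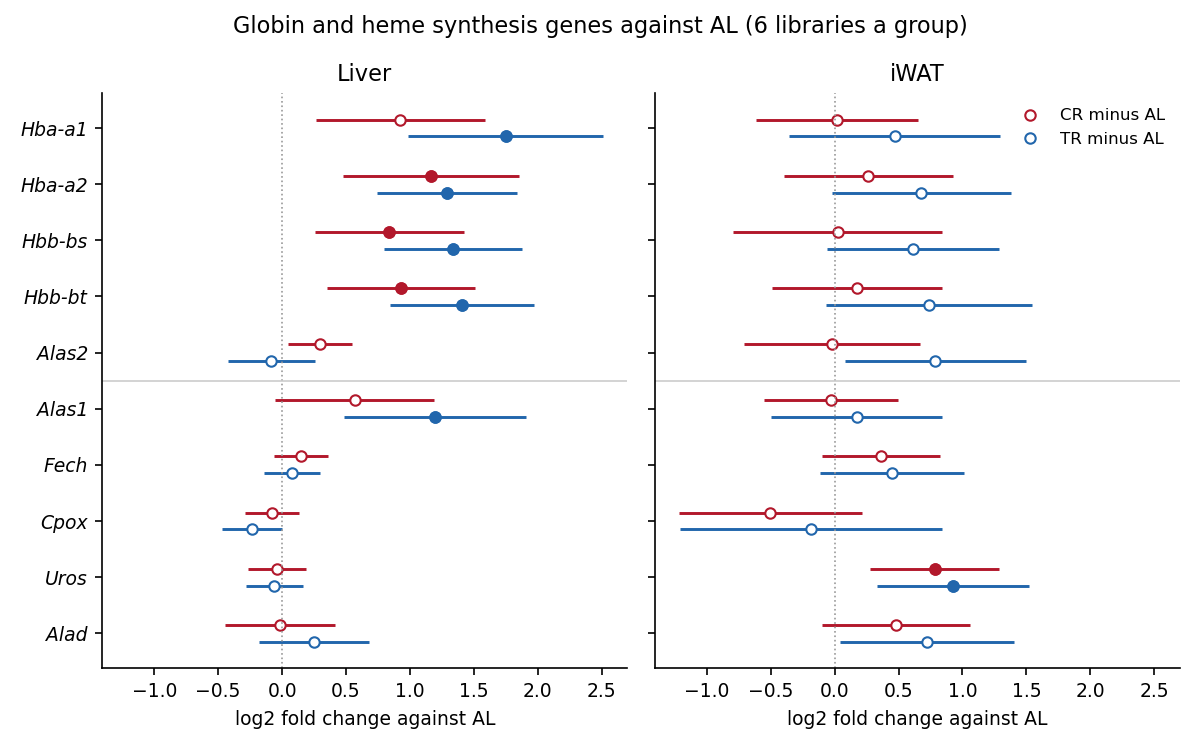
Log2 fold change of each gene against AL in liver (left) and iWAT (right), CR in red and TR in blue, 6 libraries a group; lines are approximate 95% intervals, filled points have an adjusted p under 0.05 in the authors' test, and the grey line parts the globins and Alas2 from the other enzymes. In liver 7 of the 8 globin points are filled and the Alas2 points are open, at 0.30 and -0.08, while in iWAT only the Uros points are filled.

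Alas2, the first enzyme of heme synthesis in red cell precursors, did not pass the test in the liver on either diet. Its level was about 91.7 CPM in AL, 111 in CR and 85.2 in TR, which puts AL between the diets. The log2 fold change was 0.30 on CR (adjusted p = 0.119) and -0.08 on TR (adjusted p = 0.785) per the authors' deposited tables. Its approximate intervals, 0.05 to 0.54 on CR and -0.43 to 0.26 on TR, lie below every globin estimate of the same diet. On CR the Alas2 interval overlaps those of all 4 globins, which began between 0.26 and 0.48. Its unadjusted p on CR was 0.0194 in the authors' edgeR test. On TR, the upper end of 0.26 lies below the lower ends of all 4 globin intervals, which began between 0.74 and 0.99. The difference between genes of 1 table was not tested, since the tables hold no values per library. The approximate standard error of Alas2 in liver was 0.126 on CR and 0.174 on TR, smaller than that of any globin, which ran from 0.276 to 0.389.

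The proportion of globin to Alas2 RNA also differed between tissues. Per kilobase of the most abundant transcript of each gene, the 4 globins together stood 8.60-fold above Alas2 in AL liver and 207-fold above it in AL iWAT. On that scale the ratio in liver was 13.4 in CR and 23.7 in TR, and in iWAT 225 and 185. Levels of the 2 tissues come from tables that the authors normalized separately and are set side by side only as a description. The globins were higher in AL iWAT than in AL liver, by 7.33-fold for Hba-a1, 6.96-fold for Hba-a2, 6.31-fold for Hbb-bs and 5.76-fold for Hbb-bt. Alas2 had the opposite order and was 3.70-fold higher in AL liver than in AL iWAT. On the restricted diets the globins of the tissues lay closer: Hbb-bs was 3.42-fold higher in iWAT than in liver on CR and 3.71-fold on TR. A gene on the opposite strand, Apex2, overlaps Alas2, and whether counting used strand is unknown here. Apex2 had log2 fold changes of 0.02 on CR and 0.05 on TR in liver per the authors' deposited tables.

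**Figure D2:**
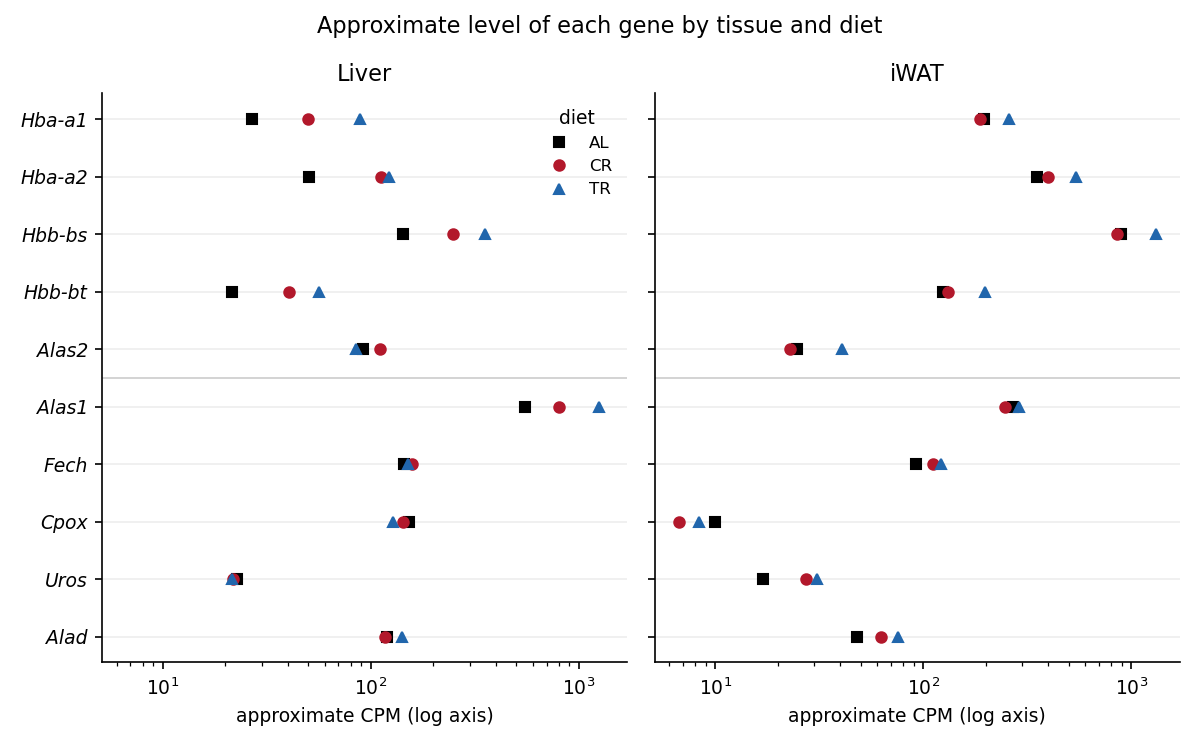
Approximate level of each gene in CPM (log axis) in liver (left) and iWAT (right) for AL (black squares), CR (red circles) and TR (blue triangles), worked back from the deposited means and fold changes, each point standing for 6 libraries with no error available. The globins lie higher in iWAT, from 124 to 897 CPM in AL, than in liver, from 21.6 to 142, while Alas2 lies lower in iWAT, at 24.8 against 91.7.

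Other red cell genes were mostly missing from the liver tables. Of 24 such genes beside the members, 5 had a row in the liver CR table and 6 in the liver TR table. Some genes of red cell precursors had no row in any liver table. Among them were Slc4a1 (the band 3 anion exchanger), Ahsp (which chaperones alpha globin) and Gata1. Others of this kind did have a row: Klf1 in the liver CR table, and Epor in the liver TR table and in CR minus TR. The measured red cell genes summed to about 23.0 CPM in AL and 28.2 in CR in the CR table, and 23.4 in AL and 27.5 in TR in the TR table. On CR, 1 of the 5 rose, Car1, a carbonic anhydrase abundant in red cells. On TR, 2 of 6 rose: Car1 and Epor (the erythropoietin receptor). These are 20% of those measured on CR and 33.3% on TR, beside 11.2% and 18.9% of all genes. Car1 had log2 fold changes of 1.37 on CR (adjusted p = 1.7e-10) and 1.28 on TR (adjusted p = 3.1e-11) per the authors' deposited tables. It stood at about 3.05 CPM in AL and 7.87 in CR. Epor had 1.38 (adjusted p = 0.0055) on TR per the authors' deposited table, from about 0.406 CPM in AL. Bpgm, the enzyme that makes 2,3-bisphosphoglycerate in red cells, had -0.0023 on CR and -0.17 on TR per the authors' deposited tables, and neither passed the test.

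Markers of other blood cells gave little to compare. Of 8 platelet genes, 1, Itga2b, had a row in the liver tables, with log2 fold changes of 0.37 on CR and 0.47 on TR that did not pass per the authors' deposited tables. Of 8 neutrophil genes, 1 had a row on CR and 0 on TR. The part of blood content in the globin values was not tested, since no value of blood per sample is given here. Hepatocyte genes, the mark of the labelled tissue, were measured in full in liver, 14 of 14, with a summed level of about 127097 CPM in AL and 166439 in CR in the CR table, and 127833 in AL and 172978 in TR in the TR table. Of these genes, Ttr rose on CR, and Ttr, Ambp and Alb rose on TR. These are 7.14% and 21.4% of the list, beside 11.2% and 18.9% of all genes. No gene of the 15 skeletal muscle genes had a row in the liver tables.

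Alas1, the housekeeping and rate-setting enzyme, rose in the liver on TR. Its level was about 554 CPM in AL, 808 in CR and 1250 in TR. The log2 fold change on TR was 1.20 (adjusted p = 0.0090) per the authors' deposited table, a 2.29-fold rise. Its approximate interval was 0.48 to 1.91 on the log2 scale. On CR the log2 fold change was 0.57 (adjusted p = 0.278) per the authors' deposited table, with an approximate interval of -0.06 to 1.19. Thus AL was the lowest and TR the highest of the liver groups, with CR between them. Per kilobase, Alas1 stood 6.46-fold above Alas2 in AL liver, 7.81-fold in CR and 15.7-fold in TR.

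Transcript tables split Alas1 into several forms. Of 29 transcripts of the members measured on TR in liver, 8 passed the test, all higher, where 3.94% of all transcripts did, and these belonged to the 4 globin genes and Alas1. The most abundant Alas1 transcript, Alas1-206, rose with a log2 fold change of 1.26 (adjusted p = 0.0203) per the authors' deposited table. Alas1-211 rose with 1.30 (adjusted p = 0.0231) and Alas1-202 with 1.25 (adjusted p = 0.0371) per the authors' deposited table. In all, 12 Alas1 forms were measured, 3 passed and 12 were above 0, from 0.11 for Alas1-204 to 3.04 for Alas1-201. Alas1-201 went from about 4.06 CPM in AL to 33.5 in TR without passing the test (adjusted p = 0.0532) per the authors' deposited table. Differences between the forms were not tested. Of the globins, the main transcript of each rose on TR, between 1.29 for Hba-a2 and 1.75 for Hba-a1 per the authors' deposited table, and a minor Hba-a1 form rose too. On CR in liver, 0 of 28 member transcripts passed the authors' edgeR test, where 2.66% of all transcripts did, and 5 had an unadjusted p under 0.05, the smallest adjusted p being 0.0561, for the main Hba-a2 form.

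The member enzymes after Alas1 did not pass the test in the liver on either diet. Alad, the second step, had about 120 CPM in AL, 117 in CR and 141 in TR, and its log2 fold changes were -0.01 and 0.25 per the authors' deposited tables. Uros, which closes the porphyrin ring, had about 22.8, 21.8 and 21.5 CPM in AL, CR and TR. Its log2 fold changes of -0.04 and -0.06 per the authors' deposited tables had approximate intervals from -0.27 to 0.18 and from -0.29 to 0.17. Cpox, an oxidase of the intermembrane space, had about 153, 143 and 129 CPM, and its TR value of -0.23 (adjusted p = 0.163) missed the threshold per the authors' deposited table. Fech, the iron-inserting last step, had about 145, 158 and 151 CPM, with log2 fold changes of 0.15 and 0.08 per the authors' deposited tables. The approximate intervals of these enzymes on TR reached no further than 0.68 up, for Alad, and -0.47 down, for Cpox. Beyond the members, Urod had 0.28 on CR (adjusted p = 0.0613) and 0.20 on TR per the authors' deposited tables. Ppox had -0.06 and -0.16, and neither gene passed the authors' edgeR test on either diet. The approximate interval of Urod on CR was 0.08 to 0.49.

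Tmem14c and Slc25a37 were the other heme genes that rose in the liver. Of 12 further genes of heme synthesis and of its mitochondrial transport, all measured, 2 rose and 0 fell on CR, and 2 rose and 0 fell on TR. That is 16.7% of the list on each diet, beside 11.2% of all genes on CR and 18.9% on TR. The list's median was 0.15 on CR and 0.14 on TR. Tmem14c, which carries protoporphyrinogen inside mitochondria, rose with log2 fold changes of 0.59 (adjusted p = 1.9e-05) and 0.60 (adjusted p = 2.6e-05) per the authors' deposited tables. Slc25a37, the mitochondrial iron importer mitoferrin-1, rose with 0.34 (adjusted p = 0.0235) and 0.39 (adjusted p = 0.0036) per the authors' deposited tables. Clpx, part of the protease that also turns over ALAS1, had 0.37 and 0.35, neither past the test per the authors' deposited tables. Taking 7 enzymes from Alas1 to Fech, 3 were above 0 on CR and 4 on TR, with medians of -0.01 and 0.08.

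Genes that break down, move or scavenge heme, and those of iron, were mixed in the liver. Of 11 heme breakdown and scavenging genes, 2 fell on CR and 1 fell and 1 rose on TR. That is 18.2% of the list on each diet, beside 11.2% of all genes on CR and 18.9% on TR. Slc48a1, the transporter that brings heme out of lysosomes, was lower with -0.56 (adjusted p = 2.1e-06) and -0.63 (adjusted p = 8.2e-09) per the authors' deposited tables. Flvcr2 was lower on CR with -0.86, and Flvcr1, described as a heme exporter, rose on TR with 0.59 per the authors' deposited tables. Hmox1, the heme oxygenase induced by heme, had 0.05 and 0.14, which did not pass per the authors' deposited tables. Of 15 iron genes, 1 rose on CR (Aco1, the iron regulatory protein IRP1), and on TR 3 rose (Trf, Aco1 and Tmprss6) and 2 fell (Slc11a2 and Ireb2). These are 6.67% of the list on CR and 33.3% on TR, beside the 11.2% and 18.9% of all genes. Trf, which encodes transferrin, had 0.60 (adjusted p = 0.0128) on TR per the authors' deposited table.

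Among 8 regulators known to act on Alas1, 1 changed in the liver on each diet. That is 12.5% of the list, beside 11.2% of all genes on CR and 18.9% on TR. Nr1d1, which encodes the heme-binding clock repressor REV-ERBα, was lower on both diets, with -2.61 (adjusted p = 1.1e-10) on CR and -2.67 (adjusted p = 3.1e-18) on TR per the authors' deposited tables. Ppargc1a, a coactivator that induces Alas1 in fasting, had 0.17 and 0.26, and Foxo1 had 0.22 and 0.30, none past the test per the authors' deposited tables. Alas1 itself follows the clock in mouse liver, and the hour of sampling is unknown here. The part of the time of day in these values was not tested.

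**Figure D3:**
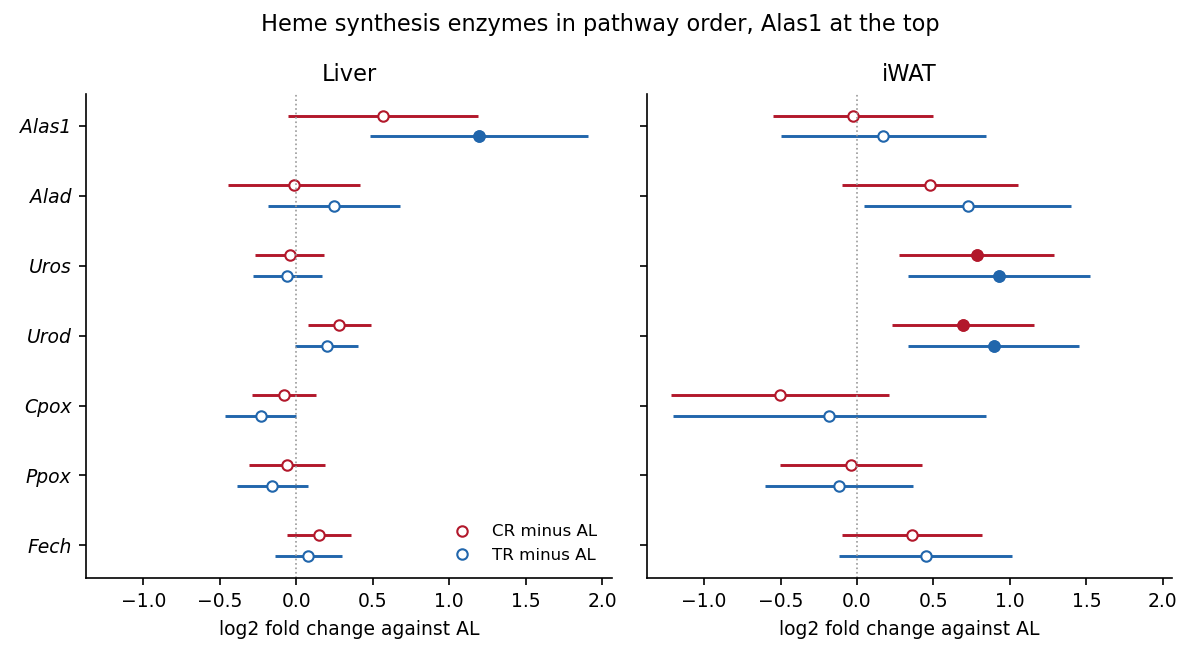
Log2 fold change against AL of 7 enzymes of heme synthesis in pathway order, Alas1 at the top and Fech at the bottom, in liver (left) and iWAT (right), CR in red and TR in blue, 6 libraries a group; lines are approximate 95% intervals and filled points passed the authors' test. In liver the TR point of Alas1 (1.20) is the filled one, and in iWAT the filled points are Uros and Urod on both diets, all above 0.

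Between the restricted diets, no member passed the test in the liver. In CR minus TR, 0 of the 10 passed the authors' edgeR test, where 0.469% of all genes did, and 2 had an unadjusted p under 0.05, Hba-a1 and Alas2. Hba-a1 had a log2 fold change of -0.82 (adjusted p = 0.391) per the authors' deposited table, with an approximate interval of -1.56 to -0.09. Alas2 had 0.38 (adjusted p = 0.449) per the authors' deposited table, with an approximate interval of 0.02 to 0.74. The other globins had -0.12 for Hba-a2, -0.49 for Hbb-bs and -0.47 for Hbb-bt, and Alas1 had -0.62 (adjusted p = 0.537) per the authors' deposited table. The interval of Alas1 ran from -1.29 to 0.04, which does not settle whether the diets differed in it. For Uros and Fech the intervals were narrower, from -0.21 to 0.25 and from -0.16 to 0.30.

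**Figure D4:**
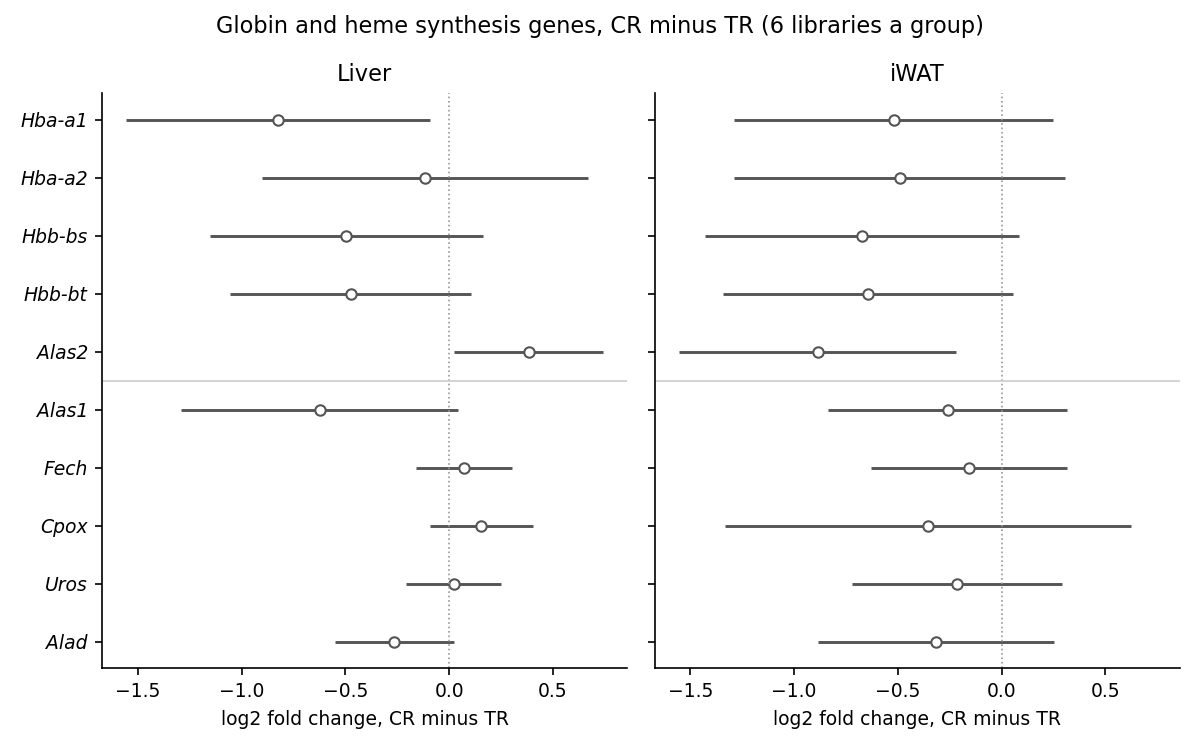
Log2 fold change of each gene in CR minus TR in liver (left) and iWAT (right), 6 libraries a group, with approximate 95% intervals; open points did not pass the authors' test. All points are open, and the lowest are Hba-a1 in liver (-0.82) and Alas2 in iWAT (-0.89).

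In iWAT, the globins did not pass the test on either diet, and Uros was the member that rose. Against AL, 1 of the 10 members passed on CR, where 7.3% of all genes did, and 1 of 10 on TR, where 10% did. Both counts are near the background. Uros rose by 1.72-fold on CR and 1.90-fold on TR. No member fell.

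Uros, the fourth enzyme of the pathway, had about 17.0 CPM in AL, 27.4 in CR and 30.9 in TR in iWAT. AL was the lowest group, and CR and TR lay close together. The log2 fold change was 0.78 (adjusted p = 0.0385) on CR and 0.93 (adjusted p = 0.0286) on TR per the authors' deposited tables. The approximate intervals were 0.28 to 1.29 and 0.33 to 1.52. The gene is on chromosome 7 from 133686243 to 133710072, and Bccip overlaps it on the opposite strand. Bccip had -0.05 on CR and -0.16 on TR in iWAT per the authors' deposited tables. At the transcript level, 0 of 28 member transcripts passed the authors' edgeR test in iWAT on CR, where 2.45% of all transcripts did, and 0 of 28 on TR, where 3.55% did. At an unadjusted p under 0.05 there were 1 and 3. The smallest adjusted p was 0.263 on CR and 0.130 on TR, both for Uros-203.

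The other member enzymes did not pass the test in iWAT on either diet. Alad had about 48.1 CPM in AL, 62.8 in CR and 75.7 in TR, with log2 fold changes of 0.48 (adjusted p = 0.375) and 0.72 (adjusted p = 0.182) per the authors' deposited tables. Fech had about 92.8, 112 and 121 CPM, with 0.36 and 0.45 per the authors' deposited tables. Both genes thus had the order AL, CR, TR without passing the test. Cpox was scarce, at about 10 CPM in AL, 6.68 in CR and 8.40 in TR, with -0.50 and -0.18 per the authors' deposited tables. Alas1, which rose in the TR liver, had about 269 CPM in AL, 248 in CR and 290 in TR in iWAT. Its log2 fold changes there were -0.03 (adjusted p = 0.970) and 0.17 (adjusted p = 0.803) per the authors' deposited tables, with approximate intervals from -0.55 to 0.50 and from -0.50 to 0.84.

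Of the 12 further genes of heme synthesis and transport, 3 rose in iWAT on CR and 3 on TR, and 0 fell on either diet. That is 25% of the list on each diet, beside 7.3% of all genes on CR and 10% on TR. These were Tmem14c, Slc25a39 and Urod on both diets. Tmem14c had log2 fold changes of 0.95 (adjusted p = 0.0020) and 1.22 (adjusted p = 9.6e-04) per the authors' deposited tables. Slc25a39, a mitochondrial carrier linked to glutathione import and heme synthesis, had 0.95 and 1.09, and Urod, the fifth enzyme, had 0.69 and 0.89 per the authors' deposited tables. The list's median was 0.16 on CR and 0.48 on TR, beside 0.02 and -0.04 over all genes. Of the 7 enzymes in pathway order, 4 were above 0 on CR and 5 on TR, beside 51.9% and 47.5% of all genes. Alad, Uros, Urod and Fech had positive values on both diets. Cpox and Ppox had negative values on both, -0.04 and -0.12 for Ppox, and the first step, Alas1, had -0.03 and 0.17 per the authors' deposited tables. Differences between the enzymes were not tested.

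Globin RNA in iWAT was high in all groups. Hbb-bs had about 897 CPM in AL, 854 in CR and 1314 in TR. Hba-a2 had about 353, 397 and 540 CPM, Hba-a1 about 196, 187 and 259, and Hbb-bt about 124, 132 and 198. TR was thus the highest group for each globin, and AL and CR lay close together. On CR the log2 fold changes of the 4 genes ran from 0.02 for Hba-a1 to 0.27 for Hba-a2 per the authors' deposited table, with adjusted p from 0.705 to 0.983. On TR they ran from 0.47 for Hba-a1 to 0.74 for Hbb-bt per the authors' deposited table, with adjusted p from 0.237 to 0.536. Their median on TR was 0.65, beside -0.04 over all genes.

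Alas2 in iWAT was highest in TR, as each globin was, whereas in liver TR was its lowest group. It had about 24.8 CPM in AL, 22.9 in CR and 40.9 in TR. The log2 fold change was -0.02 (adjusted p = 0.982) on CR and 0.79 (adjusted p = 0.158) on TR per the authors' deposited tables. The TR value had an unadjusted p of 0.0292 and an approximate interval of 0.08 to 1.49. Apex2, which overlaps Alas2, had -0.29 and -0.22 per the authors' deposited tables.

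Some hepatocyte and skeletal muscle genes passed the test against AL in iWAT. The source of their RNA, and its part in the member values, were not tested. The 14 hepatocyte genes had a summed level of about 2596 CPM in AL and 2146 in CR in the CR table, where 11 fell with a list median of -3.87. On CR the list ran from -4.39 to 0.49, and Cyp2e1 was not among the genes that fell. In the TR table the sums were 2574 CPM in AL and 10564 in TR, with a median of 2.14. There Cyp2e1 was the only gene of the list that rose by the test. The 14 measured skeletal muscle genes summed to about 3623 CPM in AL and 8310 in CR, with a median of 1.24 and 0 past the authors' edgeR test, and 0 at an unadjusted p under 0.05. In the TR table they summed to 3605 CPM in AL and 511 in TR, where 4 fell with a median of -2.81. Of the other red cell genes, 0 of 7 changed on CR, again with 0 at an unadjusted p under 0.05, and on TR 1 of 6 fell, Sptb, a spectrin that muscle also expresses, with -1.95 per the authors' deposited table. All 8 adipocyte genes, the mark of the labelled tissue, were measured, with 0 called on CR and 2 on TR. Of all iWAT genes, 7.3% were called on CR and 10% on TR.

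Of 11 heme breakdown, transport and scavenging genes measured in iWAT on each diet, 2 fell on CR and 2 on TR, or 18.2% on each, beside 7.3% and 10% of all genes. Cd163, the macrophage receptor for hemoglobin bound to haptoglobin, had -1.61 (adjusted p = 0.0051) and -1.92 (adjusted p = 4.7e-04) per the authors' deposited tables. Hpx, which encodes the plasma heme binder hemopexin made by hepatocytes, had -3.78 (adjusted p = 0.0115) on CR, 2.53 (adjusted p = 0.291) on TR and -6.32 (adjusted p = 0.0132) in CR minus TR per the authors' deposited tables. The hepatocyte list, with medians of -3.87, 2.14 and -6.01, had the same signs in these comparisons, and its part in the Hpx values was not tested. Lrp1, the receptor of the heme and hemopexin complex, had -0.99 on TR per the authors' deposited table. Among regulators of Alas1, 2 of 7 measured fell on CR and 2 of 8 on TR, or 28.6% and 25%, beside 7.3% and 10% of all genes. Nr1d1 fell on both diets, with -1.16 and -2.01, Hnf4a fell on CR and Ncor1 on TR per the authors' deposited tables. Hnf4a also fell in CR minus TR. The hepatocyte list had negative medians on CR and in CR minus TR, and its part in the Hnf4a values was not tested. Of the iron genes, 0 of 15 passed the authors' edgeR test on CR, with 2 at an unadjusted p under 0.05, and Aco1 rose on TR with 0.88 per the authors' deposited table.

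In CR minus TR of iWAT, 0 of 10 members passed the authors' edgeR test, where 0.918% of all genes did, and 1 had an unadjusted p under 0.05. That member was Alas2, with a log2 fold change of -0.89 (adjusted p = 0.430) per the authors' deposited table. Its approximate interval was -1.55 to -0.22. The globins had -0.49 to -0.67 per the authors' deposited table, each with an adjusted p of 1.00. All 10 members had a negative value there, while 52.0% of all genes were above 0 and the median of all genes was 0.01. Globin genes of a pair can share reads, so these signs are not independent. Hepatocyte genes were lower in CR than in TR in this table, 13 of 14 with a median of -6.01, and 2 of 13 muscle genes were higher, with a median of 4.07.

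Whether the diet effect itself differed between tissues was tested approximately, as iWAT less liver. On CR 0 of 10 members passed, where 6.73% of the genes measured in both tissues did, and 1 had an unadjusted p under 0.05. On TR 1 of 10 passed, where 7.81% did. The member was Uros, whose TR effect was greater in iWAT than in liver by 0.99 log2 units, with an approximate interval of 0.35 to 1.62 (adjusted p = 0.0348). With a correlation of -0.3 between the tissues of a mouse in place of 0 it no longer passed. Its difference on CR was 0.82, with an interval of 0.27 to 1.38 (adjusted p = 0.0521). The globins had negative differences on both diets, from -0.75 to -0.90 on CR and from -0.61 to -1.28 on TR, none past the threshold. Alas1 had -0.59 (adjusted p = 0.479) on CR and -1.02 (adjusted p = 0.220) on TR, with a TR interval of -2.00 to -0.05. The rise of Alas1 and the globins in liver is therefore not shown to differ from iWAT at this precision. Alas2 on TR had 0.87 (adjusted p = 0.183), on the other side of 0 from the globins.

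**Figure D5:**
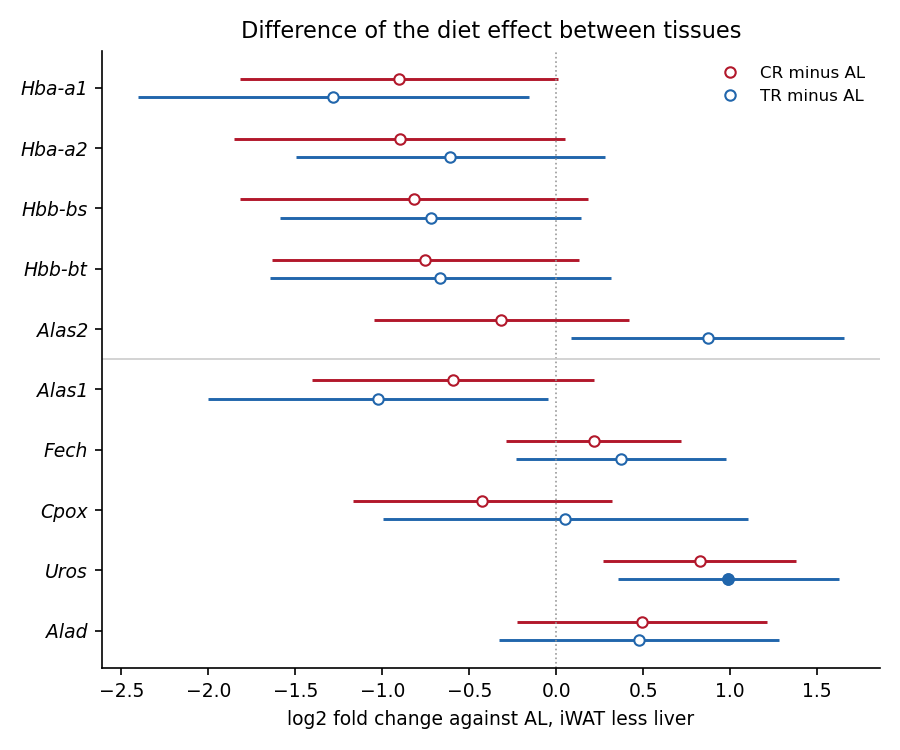
Difference of the log2 fold change against AL between tissues, iWAT less liver, for each gene, CR in red and TR in blue, with approximate 95% intervals; the filled point has an adjusted p under 0.05. Uros on TR (0.99) is the filled point, all globin points lie below 0, and Alas2 on TR (0.87) lies above 0.

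Genes whose values were most like those of Alas1 were sought over the 4 comparisons with AL, by Euclidean distance among 8811 genes whose log2 mean CPM was 2 or more in all 4 tables. The CR and TR comparisons of a tissue share their AL libraries, so the 4 values are not independent. The nearest were Alpl at a distance of 0.16, Gfod2 at 0.32, Socs2 and H1f2 at 0.34, and Gstm2 at 0.37. Alpl had log2 fold changes of 0.64 on CR and 1.17 on TR in liver, and 0.0042 and 0.03 in iWAT per the authors' deposited tables. For the mean of the 4 globins the nearest were Lrrc28 at 0.27, Nmrk1 at 0.30, Tspan4 at 0.31, Rcan1 at 0.38 and Serpinh1 at 0.45.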

How the data were processed

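Total RNA was taken with Trizol and made into Illumina TruSeq libraries, per the labels' protocols. Reads were demultiplexed with bcl2fastq 2.20, aligned with STAR 2.5.3a to GRCm38.p5 and quantified with RSEM, per the submitters' processing notes, with no version of RSEM given. The authors fitted edgeR models and deposited 12 tables, 6 of genes and 6 of transcripts, with 1 comparison each, per the file headers. The log2 columns are the authors' log2 fold change and log2 mean CPM, per the file headers. The score column is the authors' likelihood-ratio statistic, and the p-value columns are their p and FDR, per the file headers. The filter, normalization, annotation release and strand setting: not given in the sources used here.

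Members were matched by symbol. The members and gene lists were chosen with earlier results of these data known; some genes of the lists are not reported here. The test was the authors' FDR under 0.05, over all features of a table, 2-sided; a planned count model needs counts per library, which are not used here. Differences between tissues used the approximate standard errors and a 2-sided normal tail, Benjamini-Hochberg adjusted over all genes in both tissues, with the tissues of a mouse taken as uncorrelated; the code was tested on simulated data. Replicates are separate mice, and an animal number that CR and TR labels share was counted as different mice. Named beside the members are genes of the lists past the FDR, at most the 4 with the smallest adjusted p, any gene of the list on heme synthesis and transport, and the 5 genes most like Alas1 or the mean globin. Slc4a1, Ahsp, Gata1, Klf1, Bpgm, Itga2b, Hmox1, Ppargc1a and Foxo1, and the genes overlapping a member, were named after their values were seen. Alternatives were other thresholds, a filter on low means, centring on the median gene, transcripts in place of genes, and correlated tissues. Python 3.11.15, pandas 2.3.3 and scipy 1.17.1 were used. Positions and lengths are from GENCODE M21.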

Additional observations from a re-analysis of the deposited data

Results flagged for a closer look

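The effect of TR on Uros differed between the tissues: iWAT less liver was 0.99 log2 units (adjusted p = 0.0348 in the approximate test over all genes), from 0.93 in iWAT and -0.06 in liver per the authors' deposited tables. The number of mice that show this direction is not known from the tables.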

How the results depend on the processing

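Of 44 counts of members called under the alternatives, 10 differed from the count reported, 9 of them by over 1.5 times. The other was on CR in liver, where an FDR under 0.1 raised the count from 3 to 4, by Hba-a1. At an FDR under 0.01 the count fell from 3 to 0 on CR in liver and from 1 to 0 on each diet in iWAT. Counting members with a called transcript gave 0 in the same 3 comparisons. For the difference between tissues, a correlation of 0.3, or a threshold of 0.1, raised the CR count from 0 to 1, by Uros. A correlation of -0.3 lowered the TR count from 1 to 0, again by Uros. Among single members, small values changed sign in 7 instances. Centring on the median gene turned Hba-a1 to -0.0035 and Hbb-bs to -0.0012 on CR in iWAT. In the transcript tables these were -0.024 and -0.020, and the Uros transcript most abundant in each liver table had 0.055 on CR (Uros-203), 0.19 on TR and -0.23 in CR minus TR (both Uros-206). The calls of the 4 globins and Alas1 on TR in liver held under every setting run. No paired analysis was possible because the tables hold comparisons of groups and no values per library; leaving out each replicate was not run for the same reason, and the depth per library is unknown. Small changes in iWAT could not be detected at its precision.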
